A study of Arabidopsis thaliana with 72 samples.

Results

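Roots of Arabidopsis thaliana, ecotype Wassilewskija (WS), were profiled after 6 h at an atmospheric pressure of 10 kPa, with 2.1 kPa oxygen, and compared with roots after 6 h at 97 kPa, with 21 kPa oxygen. The 6 arrays, 3 of each pressure, were taken by tissue, pressure and time from their titles, out of 72 arrays in the series and 36 of roots. Carbon dioxide was 0.05 kPa in both atmospheres, the light was constant, and seedlings raised on agar plates were 10 days old when they entered the chambers. Replicates came from separate chambers run at the same time, and each was 1 tube of about 12 plants fixed in RNAlater and then cut into root and shoot. Every value is therefore an average over the whole roots of several plants, in which fewer cells of a type and less RNA per cell cannot be told apart. The wider series measured roots and shoots at 1, 3, 6, 12, 48 and 72 h on the Affymetrix ATH1 array. Total pressure and oxygen changed together and cannot be told apart. For the control, 101 kPa is written in the descriptions of the samples and 97 kPa in their other labels. Array numbers in the descriptions came in separate runs for the 10 kPa and the 97 kPa roots at 6 h, so number run and pressure cannot be told apart either.

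Plants have no circulation that carries oxygen, and roots depend on diffusion for the oxygen that mitochondrial respiration consumes. When oxygen falls, a group of transcription factors that oxygen otherwise marks for degradation becomes stable and switches on a small core of genes, while pyruvate is diverted to ethanol and lactate so that glycolysis can continue to make ATP. Energy-demanding processes such as ribosome production, cell division and wall extension are commonly scaled down under the same conditions.

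The signal of a probe set is a fluorescence intensity in arbitrary units, which orders samples for 1 gene but does not compare 1 gene with another. A change below is the log2 ratio of 10 kPa to 97 kPa signal with a pseudocount of 8.88 added to both, which understates the change of weak signals. It is given with its standard error (SE), and a gene is called, and said to have risen or fallen, where the limma test had a Benjamini-Hochberg adjusted p below 0.05 over all 16667 tested probe sets. Of these, 1531 were called (9.19%), 765 higher at 10 kPa (4.59%) and 766 lower (4.60%), and the median change over all tested probe sets was -0.03. The change was at least 1 in either direction for 575 called probe sets, at least 3 upward for 32, and and 3 or more downward for 3. Pearson correlations of log2 signal ran from 0.917 to 0.947 between replicates and from 0.883 to 0.910 between arrays of different pressure. The ratio of 3′ to 5′ signal of the GAPDH control gene, a measure of RNA quality that rises as RNA breaks, was 6.84 to 7.83 at 10 kPa and 5.94 to 9.98 at 97 kPa, with the highest value in 97 kPa replicate 2. That array stood further apart for the actin control, with a ratio of 600.6 against 58.6 to 111.0 on the other 5 arrays. With the 3′ to 5′ ratio as a covariate 1588 probe sets were called, and without that array 1266.

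**Figure D1:**
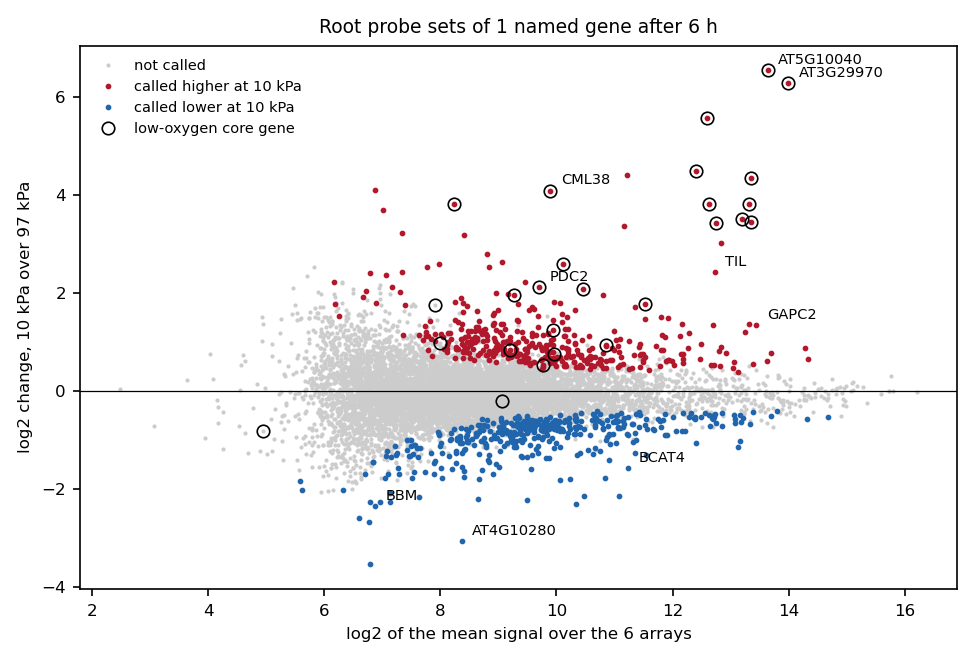
Each point is a tested probe set of 1 named gene, with the log2 of its mean signal over the 6 arrays on the horizontal axis and its log2 change, 10 kPa over 97 kPa, on the vertical axis. Red points were called higher at 10 kPa, blue points were called lower, grey points were not called, and black rings mark the low-oxygen core genes, which reach a change of 6.55.

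Core low-oxygen genes included the largest changes among the genes named here. Of 50 genes on the list, 26 had a probe set that the annotation tables name, and all 26 passed the filter on low signal. The other genes of the list were not analysed here. At 10 kPa 20 of the 26 rose, against 4.59% of all tested probe sets, none fell, against 4.60%, and the median change was 2.36. In 24 of them the lowest value at 10 kPa lay above the highest at 97 kPa, which was the case for 13.2% of all tested probe sets. The ratio of group means was 10 or more for 12 of those that rose. Of the 12 genes that the naming rule gives as the largest increases, 11 belong to this list.

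AT5G10040, a gene with no function in the annotation used, had signals of 27570, 25640 and 22390 in 10 kPa roots, against 340.0, 167.3 and 301.9 in 97 kPa roots. The 10 kPa values lay close together and the ratio of group means was 93.4, a log2 change of 6.55 (SE 0.39, adjusted p = 6.24e-15). AT3G29970 reached 35650, 32410 and 28160 in 10 kPa roots, against 807.4, 284.5 and 275.6 in 97 kPa roots, so that 97 kPa replicate 1 stood above its partners but far below every 10 kPa array. Its change was 6.29 (SE 0.40, adjusted p = 2.48e-14). AT2G17850 had 13110, 12050 and 11170 in 10 kPa roots and 320.6, 274.7 and 165.8 in 97 kPa roots, a change of 5.58 (SE 0.35). Over the 16 alternative settings, other pseudocounts included, the change of AT5G10040 lay between 6.25 and 6.75, that of AT3G29970 between 6.03 and 6.79, and that of AT2G17850 between 5.31 and 5.76.

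Next in size on the list came AT4G33560, with 11320, 8691 and 11040 in 10 kPa roots against 519.8, 372.4 and 456.7 in 97 kPa roots. Its groups were separated by a ratio of 23.0 (log2 change 4.50, SE 0.36). AT4G39675 had 25450, 16880 and 17270 in 10 kPa roots, with replicate 1 the highest, and 1255, 993.8 and 662.4 in 97 kPa roots, a change of 4.36 (SE 0.29, adjusted p = 1.04e-13). CML38, a calmodulin-like protein that binds calcium and is known as a hypoxia-induced calcium sensor, had 1979, 1837 and 1458 in 10 kPa roots and 213.5, 14.34 and 200 in 97 kPa roots. The low value of 97 kPa replicate 2 widened the control group, and the change of 4.09 had an SE of 0.54 (adjusted p = 1.62e-06). Without that array the change was 3.02, and the call held under each of the 16 alternatives.

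**Figure D2:**
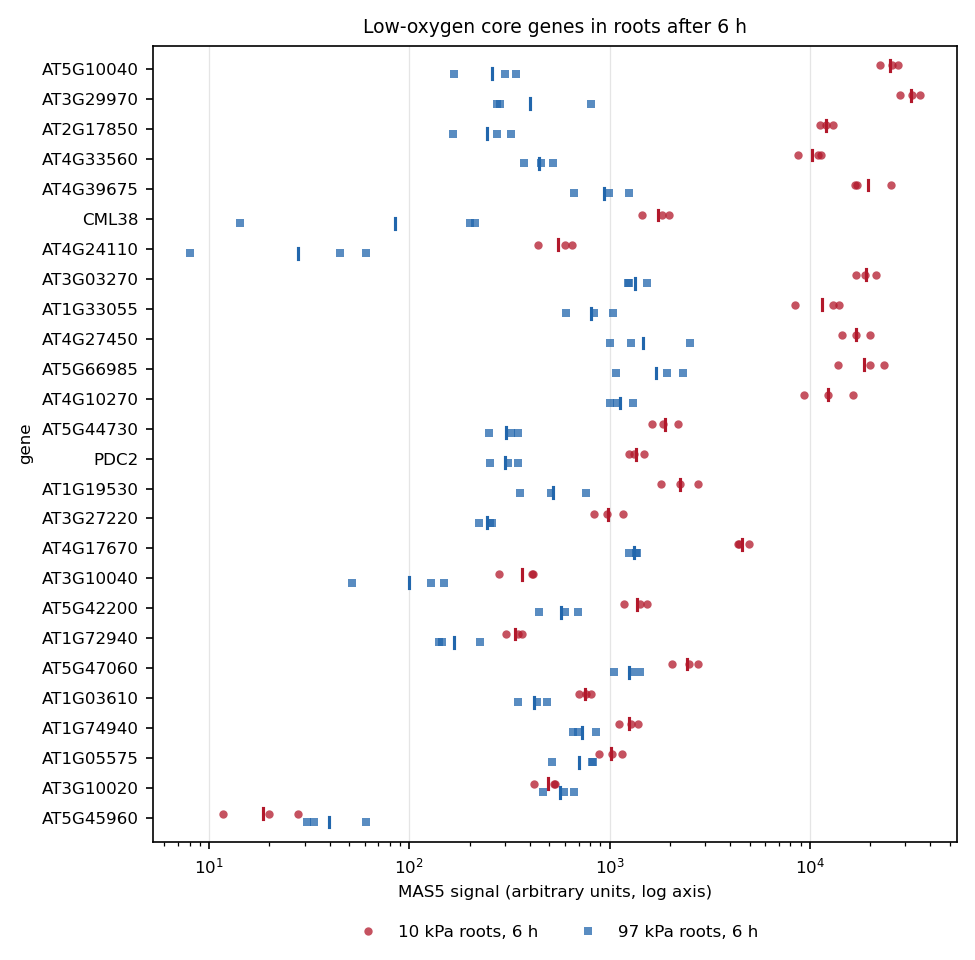
Signals of the 26 low-oxygen core genes in single arrays, on a log axis, with genes ordered from the largest to the smallest log2 change. Red circles are the 3 arrays of 10 kPa roots, blue squares the 3 arrays of 97 kPa roots, and the short vertical lines mark geometric means. The circles lie right of the squares without overlap for 24 genes, overlap them for AT3G10020, and lie left of them for AT5G45960.

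A further 6 genes of the list rose by between 3.44 and 3.82. AT3G03270 had a ratio of group means of 14.2 and the smallest error of these, with a change of 3.82 (SE 0.24). AT1G33055 rose by 3.82 (SE 0.39), AT4G24110 by 3.82 (SE 0.79), AT4G27450 by 3.51 (SE 0.30), AT5G66985 by 3.45 (SE 0.44) and AT4G10270 by 3.44 (SE 0.47). The wide error of AT4G24110 went with a control group of 44.88, 60.77 and 8.02, close to the lower end of the signal range, against 649.7, 440.8 and 596.6 in 10 kPa roots.

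PDC2, which encodes pyruvate decarboxylase, the enzyme that commits pyruvate to ethanol, had 1493, 1317 and 1250 in 10 kPa roots and 251.7, 348.8 and 312.2 in 97 kPa roots. The mean was 1353 ± 125.5 in 10 kPa roots and 304.2 ± 49.0 in 97 kPa roots (SD, n = 3 each), a change of 2.13 (SE 0.21, adjusted p = 3.72e-09). Around it in size were AT5G44730, which rose by 2.60 (SE 0.23), AT1G19530 by 2.09 (SE 0.22), AT3G27220 by 1.96 (SE 0.25) and AT4G17670 by 1.79 (SE 0.23). Smaller increases were those of AT5G42200, by 1.25 (SE 0.22), AT5G47060, by 0.95 (SE 0.22), and AT1G03610, by 0.84 (SE 0.20). Each of the 20 genes that rose was called under each of the 16 alternatives.

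The 6 members not called included AT3G10040, which the annotation also lists as HRA1, HYPOXIA RESPONSE ATTENUATOR1, a transcription factor that restrains the activators of the response. Its signals were 416.4, 410.6 and 281.5 in 10 kPa roots and 128.3, 149.8 and 51.49 in 97 kPa roots, without overlap, but the change of 1.77 had an SE of 0.63 (adjusted p = 0.0726). AT1G72940 had a change of 0.98 (adjusted p = 0.15), AT1G74940 of 0.77 and AT1G05575 of 0.53. For AT3G10020 the change was -0.20 and for AT5G45960 it was -0.81. The last of these had a mean signal of 19.8 in 10 kPa roots and 41.7 in 97 kPa roots, where measurement is poor.

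Outside the list, AT2G41730 was the gene of the 12 largest increases that is not a low-oxygen core gene. It had 5002, 3893 and 4755 in 10 kPa roots and 205.0, 317.9 and 127.1 in 97 kPa roots, a change of 4.42 (SE 0.38, adjusted p = 1.39e-10). AT3G11930 had 14220, 14080 and 10800 in 10 kPa roots, all above the 1398, 1439 and 1950 of the 97 kPa roots, and rose by 3.03 (SE 0.19). Among genes with a symbol, picked out here after their values were seen, TIL was highest after CML38. TIL, the temperature-induced lipocalin, a membrane-associated carrier protein linked to stress tolerance, had 11630, 12630 and 10010 in 10 kPa roots and 2207, 2438 and 1715 in 97 kPa roots (change 2.43, SE 0.17, adjusted p = 2.45e-13). Also picked out in that way, Prx37, a secreted class III peroxidase, rose by 1.97 (SE 0.30), NANA, an aspartic protease, by 1.8 (SE 0.23), and ARL, an ARGOS-like gene that promotes cell expansion, by 1.72 (SE 0.21).

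Counts of gene groups from here on stand beside 4.59% of all tested probe sets called higher and 4.60% called lower. Of 29 genes on the glycolysis and fermentation list 7 were tested, and the others were not analysed here. Of the 7, 3 rose, none fell and the median change was 0.44. AT4G17260 had 1152, 1248 and 975.0 in 10 kPa roots and 326.9, 346.1 and 377.6 in 97 kPa roots, a change of 1.65 (SE 0.26, adjusted p = 4.25e-05). GAPC2, the cytosolic glyceraldehyde-3-phosphate dehydrogenase of glycolysis, had 16690, 16830 and 14470 in 10 kPa roots, above the 6264, 5370 and 7303 of 97 kPa roots, and rose by 1.35 (SE 0.25). AT5G08570 rose by 0.55 (SE 0.17, adjusted p = 0.0419), a call kept under 11 of the 16 alternatives. TPI, triose phosphate isomerase, was not called, with a change of 0.44 (adjusted p = 0.0659). Outside that list, GLX2-1, a gene named as a glyoxalase, rose by 0.95 (SE 0.18). Whether its protein has that activity was not tested. The aldehyde dehydrogenases ALDH2C4 and ALDH7B4 rose by 0.78 (SE 0.20) and 0.75 (SE 0.16) among 8 tested members of their family. GLX2-1 was picked out after its value was seen.

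Of 27 genes on the tricarboxylic acid cycle and electron transport list 8 were tested and none was called at 10 kPa. Their median change was -0.08, and 0.01 or 0.02 without 10 kPa replicate 3 and likewise without replicate 1 or 3 of 97 kPa. The highest of them, the glyoxylate cycle enzyme isocitrate lyase (ICL), had a change of 2.1 on very low signals of 63.2, 99.9 and 66.5 in 10 kPa roots and 5.04, 21.0 and 8.46 in 97 kPa roots (adjusted p = 0.13). SDH2-2, the iron-sulfur subunit of succinate dehydrogenase and not on that list, had 1289, 1366 and 1083 in 10 kPa roots against 2899, 2665 and 2356 in 97 kPa roots. It fell by 1.08 (SE 0.14, adjusted p = 1.19e-06) and was chosen after its value was seen. The 15 tested probe sets for genes of the mitochondrial genome had a median change of -0.63 with no call (3 lower without 10 kPa replicate 3), and their summed signal of 20880, 23410 and 44220 in 10 kPa roots overlapped the 28710, 34570 and 52160 of 97 kPa roots.

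Of 32 genes on the list for protein folding in the endoplasmic reticulum 6 were tested, of which 1 rose and 2 fell, beside 4.59% and 4.60% of all tested probe sets. BZIP60, a membrane-bound transcription factor that reports unfolded protein, had 2765, 1943 and 2640 in 10 kPa roots and 1313, 1314 and 1184 in 97 kPa roots, a rise of 0.93 (SE 0.17, adjusted p = 0.000291). ATERDJ3B, a co-chaperone that hands clients to the ER chaperone BiP, had 1458, 1456 and 1155 in 10 kPa roots against 2667, 2631 and 3215 in 97 kPa roots, and fell by 1.06 (SE 0.15). CRT1b, a calreticulin that binds calcium and glycoproteins, had 1780, 1702 and 1534 in 10 kPa roots, below the 3223, 2656 and 3525 of 97 kPa roots, and fell by 0.90 (SE 0.15, adjusted p = 7.51e-05). The median of the list was 0.02, but leaving out 10 kPa replicate 1 gave 0.13, leaving out 10 kPa replicate 3 gave -0.12 and leaving out 97 kPa replicate 1 gave -0.03, so it has no settled sign.

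Chaperonins and protein disulfide isomerases had 3 of 7 tested genes lower, beside 4.60% of all tested probe sets, and none higher. Their median was -0.39, with -0.23 when 10 kPa replicate 3 was left out, -0.24 when it was 97 kPa replicate 1 and -0.60 when it was 97 kPa replicate 3. The plastid chaperonin subunit Cpn60beta2 had 1047, 922.7 and 1183 in 10 kPa roots and 2798, 2571 and 2946 in 97 kPa roots, with a gap between the groups larger than the range within either (change -1.4, SE 0.17, adjusted p = 2.73e-07). Its relative Cpn60beta3 fell by 0.87 (SE 0.20), and PDIL5-1, a disulfide isomerase that folds secreted proteins, by 0.96 (SE 0.19). Heat shock genes gave no call among 7 tested, with a median change of 0.82 and 4 of them above the controls without overlap, against 13.2% of all tested probe sets. Without 97 kPa replicate 1 the median was 0.46, and 1 member was called with only the 6 arrays, with the higher pseudocount or without the 48 and 72 h arrays. Fes1A, a partner of cytosolic HSP70 and not on the list, rose by 0.78 (SE 0.25, adjusted p = 0.0391), which held in 8 of the 16 alternatives.

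Glutathione transferases, which couple glutathione to reactive compounds, had 13 tested members with a median change of -0.23. Of these 1 rose, a share near the 4.59% of all tested probe sets, and 3 fell, beside 4.60%. GSTU22 had 1547, 1312 and 995.2 in 10 kPa roots against 607.8, 640.3 and 419.3 in 97 kPa roots, and rose by 1.2 (SE 0.24). GSTU28 had 465.4, 414.9 and 266.4 in 10 kPa roots and 1147, 1051 and 1211 in 97 kPa roots, and fell by 1.59 (SE 0.26, adjusted p = 4.96e-05). GSTU20 fell by 1.39 (SE 0.28) and GSTU26 by 1.25 (SE 0.28). Members of this family resemble each other in sequence, and cross-hybridisation between their probe sets was not tested.

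Other redox genes, chosen after their values were seen, included a pair of methionine sulfoxide reductases that repair oxidised methionine. MSRB6 had 950.1, 813.9 and 1040 in 10 kPa roots and 377.2, 374.6 and 266.3 in 97 kPa roots, and rose by 1.45 (SE 0.31, adjusted p = 0.00148). MSRB9 had 6874, 5832 and 5453 in 10 kPa roots against 11410, 12340 and 12950 in 97 kPa roots, and fell by 1.02 (SE 0.22, adjusted p = 0.0022). The same choice gave 3 single genes that fell, GLDH, the last enzyme of ascorbate synthesis, by 0.72 (SE 0.17), the ascorbate peroxidase gene SAPX by 0.67 (SE 0.21) and ATMDAR2, which regenerates ascorbate, by 0.53 (SE 0.14). No list of redox or ascorbate genes was examined, so these values do not describe a pathway.

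Of 6 tested histone genes 2 fell, beside 4.60% of all tested probe sets, with a median of -0.30. HTR12, the centromeric histone H3, had 119.0, 17.18 and 139.5 in 10 kPa roots and 166.7, 311.4 and 345.6 in 97 kPa roots, and fell by 1.78 (SE 0.42, adjusted p = 0.00392). That call was lost without 10 kPa replicate 2 (adjusted p = 0.0966), the lowest array, and in a fit of only the 6 arrays. The histone H2B gene HTB4 fell by 0.45 (SE 0.14) with groups that overlapped. The HTB4 call held under 9 of the 16 alternatives. AUR1, an Aurora kinase of mitosis, had 864.7, 989.4 and 901.4 in 10 kPa roots against 1449, 1516 and 1373 in 97 kPa roots, and its fall of 0.65 (SE 0.18) was the only call among 6 tested of 40 cell division genes, beside 4.60% of all probe sets. It was lost without 10 kPa replicate 1 or 3 and without 97 kPa replicate 1 or 2. The median of the 6 was -0.21, and -0.35 without 97 kPa replicate 3.

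Of 22 root meristem and stem cell genes 3 were tested and 2 fell. UPB1, a basic helix-loop-helix factor that sets the balance of reactive oxygen between division and elongation in the root tip, had 510.3, 468.3 and 514.5 in 10 kPa roots and 1513, 1101 and 1309 in 97 kPa roots, a change of -1.37 (SE 0.29, adjusted p = 0.00131). BBM, a transcription factor of embryos and root stem cells, had 73.5, 15.9 and 22.0 in 10 kPa roots and 245.6, 137.4 and 213.0 in 97 kPa roots, a change of -2.34 (SE 0.64), and was called under 11 of the 15 alternatives in which it was tested, not without 10 kPa replicate 2 or 3 or 97 kPa replicate 1 or 3. Of 26 cytosolic ribosomal protein genes 5 were tested and 2 fell, beside 4.60% of all probe sets, AT5G02870 by 0.49 (SE 0.12) and AT3G09630 by 0.54 (SE 0.16). The call of AT3G09630 was lost with no variance trend and without 10 kPa replicate 2 or 3 or 97 kPa replicate 1 or 3.

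The LSM proteins, ring-forming partners of messenger RNA decay and splicing, were examined as a family after their values were seen. Of 6 tested, 4 fell, beside 4.60% of all tested probe sets, namely LSM3A by 0.72 (SE 0.21), LSM1B by 0.65 (SE 0.20), LSM1A by 0.62 (SE 0.17) and LSM6A by 0.55 (SE 0.14). LSM1A had 821.6, 766.0 and 1051 in 10 kPa roots, below the 1448, 1143 and 1457 of 97 kPa roots. Each of the 4 calls was lost when at least 1 of the 6 arrays was left out, LSM6A only without 10 kPa replicate 3 (adjusted p = 0.0725). The number lower was 1 without 10 kPa replicate 2 or 3 or 97 kPa replicate 1, and 2 without 97 kPa replicate 2 or 3.

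Of 15 tested expansins, proteins that let cell walls slide during growth, 1 fell, EXPA15, a share near the 4.60% of all tested probe sets. In 5 of the 15 the 10 kPa values lay below the controls without overlap, against 15.1% of all tested probe sets. The median was -0.21, and -0.05 without 97 kPa replicate 1. Without the 48 and 72 h arrays 3 were lower and 1 higher, and with the 3′ to 5′ covariate 2 were lower. It had 555.2, 580.0 and 574.3 in 10 kPa roots and 884.7, 1014 and 1573 in 97 kPa roots, with the narrow group at 10 kPa below every control, and fell by 0.97 (SE 0.21, adjusted p = 0.00178). Among 7 tested xyloglucan endotransglucosylases, which cut and rejoin wall polymers, XTH20 rose by 0.86 (SE 0.25) and XTH16 fell by 1.18 (SE 0.30). The XTH20 call was lost without 10 kPa replicate 1 or 3 or 97 kPa replicate 1, and the XTH16 call without 10 kPa replicate 2 or 97 kPa replicate 3. SBT4.12, a subtilase, had 1539, 1389 and 2083 in 10 kPa roots against 3212, 2660 and 4489 in 97 kPa roots, and fell by 1.03 (SE 0.19). It was the only call among 6 tested subtilases and papain proteases. Their median was 0.41, with 4 changes positive and 2 negative. The small signalling peptides of the RALF type, which act on wall sensors, went up where called: RALFL32 by 0.66 (SE 0.17) and RALFL33 by 0.64 (SE 0.15), among 10 tested members of the RALF-like and CLE list, beside 4.59% of all tested probe sets. The RALFL32 call was lost without 10 kPa replicate 2 or 97 kPa replicate 3.

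Of 32 glucosinolate genes 6 were tested, with a median change of -0.61, and 1 fell. That gene, BCAT4, the aminotransferase that opens the synthesis of methionine-derived glucosinolates, had 1600, 674.1 and 1453 in 10 kPa roots and 3373, 2498 and 4853 in 97 kPa roots. It fell by 1.56 (SE 0.27, adjusted p = 0.000103). A further 3 single genes of sulfur metabolism were added with their values known and with no list behind them. MGL, which breaks methionine down, had 74.0, 95.3 and 105.6 in 10 kPa roots and 226.2, 227.5 and 169.6 in 97 kPa roots, and fell by 1.11 (SE 0.25). HMT-1, which makes methionine from homocysteine, had 1154, 1508 and 945.3 in 10 kPa roots, above the 610.6, 470.9 and 517.5 of 97 kPa roots, and rose by 1.14 (SE 0.24). SIR, the sulfite reductase of sulfate assimilation, rose by 0.46 (SE 0.14).

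Of 25 genes that respond to sugar and energy starvation 6 were tested. At 10 kPa none was called higher and 3 fell, beside 4.60% of all tested probe sets, with a median of -0.76. The number lower was 1 without 10 kPa replicate 2 and likewise without replicate 2 or 3 of 97 kPa, and 1 gene was called higher without 10 kPa replicate 3. In 2 of the 6 the 10 kPa values lay above the controls without overlap and in 4 below them, against 13.2% and 15.1% of all tested probe sets. GAT1_2.1, a glutamine amidotransferase, had 26.5, 13.2 and 13.6 in 10 kPa roots and 52.9, 218.1 and 257.9 in 97 kPa roots, with 97 kPa replicate 1 nearest to the 10 kPa arrays, and fell by 2.58 (SE 0.68, adjusted p = 0.0113). MCCA and IVD, enzymes of leucine breakdown, fell by 0.99 (SE 0.26) and 0.95 (SE 0.26). The sugar transporters of the vacuole TMT1 and TMT2, picked out after their values were seen, changed in opposite directions. TMT1 had 1866, 2582 and 2783 in 10 kPa roots and 3802, 4160 and 4156 in 97 kPa roots (change -0.76, SE 0.14), whereas TMT2 had 605.7, 630.5 and 608.3 in 10 kPa roots and 249.2, 417.2 and 429.1 in 97 kPa roots (change 0.78, SE 0.25, adjusted p = 0.0454, called under 9 of the 16 alternatives). None of 7 tested phloem and sugar transport genes and none of 11 tested SWEET sugar exporters was called.

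Of 8 tested auxin genes GH3.3, an enzyme that joins auxin to amino acids, was the 1 called. It had 139.8, 216.4 and 355.8 in 10 kPa roots against 65.8, 19.6 and 59.7 in 97 kPa roots, and rose by 2.13 (SE 0.66, adjusted p = 0.0341), a call kept under 10 of its 15 alternatives. PYE, a transcription factor of iron deficiency, rose by 0.85 (SE 0.26). It was the only call among 2 tested of 40 nitrate, phosphate and iron transport genes. From another list, bHLH104, also a factor of that response, fell by 0.98 (SE 0.21). It was the only call among 7 tested basic helix-loop-helix genes, whose median was 0.17. These values do not describe an iron response. None of 13 tested cytochromes P450 was called, and 1 of 24 tested UDP-glycosyltransferases, UGT80B1, fell by 0.97 (SE 0.29), beside 9.19% of all tested probe sets called. The UGT80B1 call was lost without 10 kPa replicate 2 or 97 kPa replicate 1 or 2.

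The largest decreases were smaller than the largest increases. AT4G10280 had 34.48, 92.34 and 64.42 in 10 kPa roots and 540.3, 862.4 and 383.0 in 97 kPa roots. Its mean was 9.34 times lower at 10 kPa, a log2 change of -3.06 (SE 0.41, adjusted p = 2.08e-06). In the TAIR10.1 annotation AT4G10280 lies next to AT4G10270 on chromosome 4 and their annotated spans overlap. The neighbours changed in opposite directions, AT4G10270 with 16360, 12280 and 9294 in 10 kPa roots against 1303, 1089 and 1004 in 97 kPa roots. Whether either probe set also reads the other transcript was not tested.

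AT5G26260 had 384.9, 377.3 and 542.1 in 10 kPa roots against 2455, 2083 and 1960 in 97 kPa roots, and fell by 2.31 (SE 0.39). AT4G29690 had 183.4, 347.4 and 242.6 in 10 kPa roots and 1140, 1173 and 1244 in 97 kPa roots, and fell by 2.21 (SE 0.26, adjusted p = 2.51e-07). AT1G73620 had 962.4, 722.7 and 717.3 in 10 kPa roots and 3670, 3260 and 3595 in 97 kPa roots, and fell by 2.13 (SE 0.25). In all 3 the control values were close together and the groups were far apart. The remaining genes of this set were AT2G39040 (-2.19), AT5G62340 (-2.13), AT2G43550 (-1.81), AT5G19100 (-1.78), AT4G11190 (-1.78), the pseudogene AT5G50315 (-1.77), AT4G25250 (-1.75) and AT3G26510 (-1.69). The annotation used, read for symbols, synonyms, position and gene type only, gives no function for any of these 12 genes. Families were matched on the same names, so members known by locus number alone can be missing from the families described above. All 12 were called under each of the 16 alternatives.

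**Figure D3:**
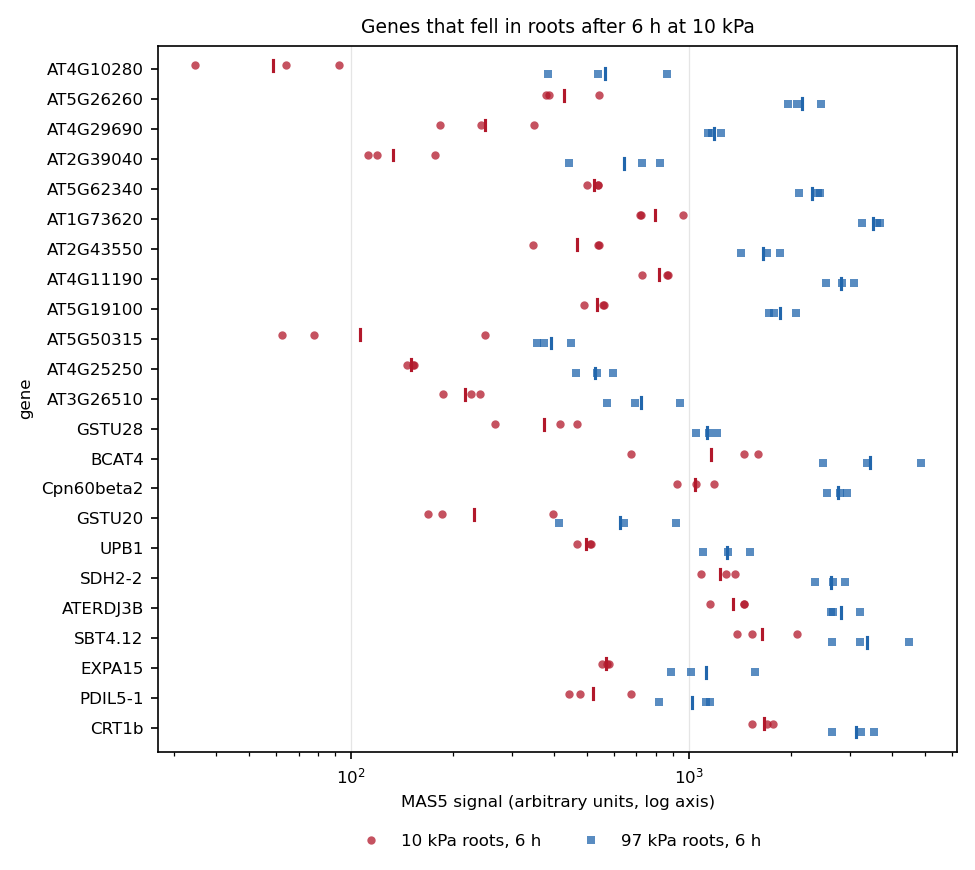
Signals in single arrays, on a log axis, of the 12 largest decreases by the naming rule (upper rows) and of 11 further genes named in the text that fell (lower rows), each block ordered by log2 change. Red circles are the 3 arrays of 10 kPa roots, blue squares the 3 arrays of 97 kPa roots, and short vertical lines mark geometric means. Circles lie left of squares in every row.

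Markers of other tissue and of cell types were read as lists. Of 11 tested shoot photosynthesis genes, which would mark shoot tissue in the root samples, the photosystem I gene PSAE-1 rose by 1.13 (SE 0.35, adjusted p = 0.0332, called under 9 of the 16 alternatives) and PORB, of chlorophyll synthesis, fell by 1.69 with overlapping groups (SE 0.54, adjusted p = 0.0432, called under 7 of the 16), with a median of 0.17 for the list. Without 97 kPa replicate 3 the median was -0.09 and neither gene was called. Their summed signal was 6136 to 7187 in 10 kPa roots and 4032 to 7033 in 97 kPa roots, so the groups overlapped. The 3 tested root hair genes had a median of -0.46 with no call and a summed signal of 752.4 to 1257 in 10 kPa roots and 1175 to 1613 in 97 kPa roots. At 3 h the same 3 had a median of -1.49 and all were called lower, against 3.43% of all tested probe sets. At 12 h their median was -0.47 with no call. None of them differed between 6 h and 3 h when the difference itself was tested. For xylem the 1 tested gene, GUT2, a xylan synthase of secondary walls, rose by 0.86 (SE 0.26, adjusted p = 0.0291). The annotation tables name no probe set for the 25 endodermis or the 9 root cap genes of the lists, so these cell types were not examined. A part of cell type composition in the results was not tested.

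Against the other times, the core response was already present before 6 h. The median change of the 26 low-oxygen genes was 3.62 at 1 h, 2.90 at 3 h, 2.36 at 6 h and 2.66 at 12 h. At these times 23, 23, 20 and 21 of them rose and none fell, where 2.13%, 2.57%, 4.59% and 5.66% of all tested probe sets were called higher and 1.43%, 3.43%, 4.60% and 6.35% lower. The times share no arrays. AT5G10040 had changes of 8.19, 6.86, 6.55 and 6.67 at 1, 3, 6 and 12 h, and PDC2 of 3.53, 2.50, 2.13 and 2.35. AT1G19530 had changes of 3.70, 2.94, 2.09 and 1.4 and AT3G10040 of 3.84, 2.53, 1.77 and 1.1, both lower at each later time. AT3G03270 ran the other way, with 2.73, 3.82, 3.82 and 4.78. No low-oxygen gene differed between 6 h and 3 h, or between 12 h and 6 h, when the difference itself was tested.

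**Figure D4:**
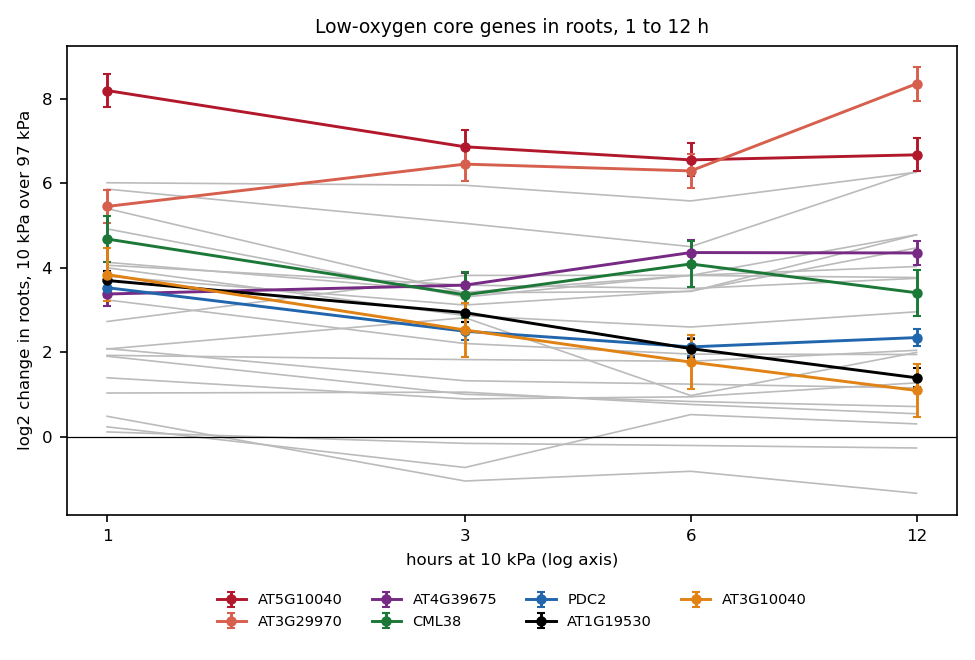
Log2 change of the 26 low-oxygen core genes in roots, 10 kPa over 97 kPa, at 1, 3, 6 and 12 h on a log time axis. Coloured lines with bars of 1 SE mark 7 genes and grey lines the others, and AT5G10040 stands highest at 1 h with 8.19 while AT3G29970 reaches 8.35 at 12 h.

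Over all probe sets the number called was 594 at 1 h (3.56%), 1000 at 3 h (6.00%), 1531 at 6 h (9.19%) and 2001 at 12 h (12.0%). Of the 765 called higher at 6 h, 265 were also called higher at 3 h, which is 34.6% of the 6 h calls and 61.9% of the 3 h calls. At 12 h 510 of the 765 were called higher (66.7% of the 6 h and 54.1% of the 12 h calls). Of the 766 called lower at 6 h, 217 were lower at 3 h (28.3% and 37.9%) and 493 at 12 h (64.4% and 46.6%). The control roots of 6 h and 12 h had neighbouring array numbers, while those of 3 h were numbered in a separate run. The share of the 6 h calls was larger with 12 h, where more probe sets were called. As a share of the other time's calls, the higher calls overlapped more with 3 h (61.9% against 54.1%) and the lower calls more with 12 h (46.6% against 37.9%). A part of the number run in this sharing was not tested. The 12 largest increases were all called higher at 1, 3 and 12 h as well. Of the 12 largest decreases 3 were called lower at 1 h, 9 at 3 h and 11 at 12 h. AT5G26260, for example, had changes of -0.78 and -0.68 at 1 and 3 h, neither called, then -2.31 at 6 h and -2.92 at 12 h. It was named for its large fall at 6 h, and the difference between its 6 h and 3 h effects was not called.

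The test of the difference between the 6 h and the 3 h effect called 23 probe sets (0.138%), all with a higher effect at 6 h. NANA had changes of 1.8 at 6 h and 0.25 at 3 h, a difference of 1.55 (SE 0.33, adjusted p = 0.0319). Its signals at 6 h were 1765, 1751 and 1486 in 10 kPa roots and 604.7, 461.6 and 371.2 in 97 kPa roots, without overlap. AT4G33666 had 1.07 at 6 h and -0.89 at 3 h (difference 1.97, SE 0.42), AT1G49310 had 1.07 and -0.56 (difference 1.63, SE 0.33), and AT2G45920 had 0.88 and -0.67 (difference 1.55, SE 0.24). For AT1G18980, with changes of 0.04 at 6 h and -1.49 at 3 h, and AT2G27830, with 0.15 and -1.12, the gene fell at 3 h and was not called at 6 h. The control roots of 3 h and 6 h were numbered in separate runs, so such differences also compare runs. Between 10 kPa roots of 6 h and 3 h limma called 207 probe sets (1.24%), 163 higher (0.978%) and 44 lower (0.264%) at 6 h. Between 97 kPa roots of 6 h and 3 h it called none (0.00%), with 717 at an unadjusted p below 0.05. For the difference between the 12 h and the 6 h effect limma called none (0.00%), with 665 probe sets at an unadjusted p below 0.05.

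Shoots of the same tubes were compared with roots at 6 h. In the fit of all 72 arrays 1344 of 17901 probe sets (7.51%) were called in shoots at 6 h, and the pressure effect differed between root and shoot for 1129 (6.31%), 514 with the higher effect in roots and 615 with the higher effect in shoots. Of the 765 called higher in roots, 117 were also called higher in shoots and 34 lower. Of the 766 called lower in roots, 115 were called lower in shoots and 35 higher. Over all probe sets 3.77% were called higher in shoots and 3.74% lower, and the 34 and 35 opposite calls lie near these shares. Root and shoot arrays of a tube share their plants and chamber. The 3′ to 5′ ratio of GAPDH at 6 h was 5.937 to 9.982 on root arrays and 2.305 to 3.267 on shoot arrays. A part of RNA quality in the root minus shoot differences was not tested.

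Among the low-oxygen genes 14 of 26 had a larger effect in roots, against 2.87% of all probe sets, and none a larger effect in shoots, against 3.44%. In shoots 10 of the 26 rose (3.77% of all probe sets) and 2 fell (3.74%), AT1G05575 and AT3G10020, with a median of 0.94. AT5G10040 had 476.1, 359.0 and 413.2 in 10 kPa shoots and 35.68, 19.88 and 26.07 in 97 kPa shoots, so its change was 6.55 in roots and 3.57 in shoots (difference 2.98, adjusted p = 0.0121). For AT4G39675 the change was 4.36 in roots and 0.73 in shoots, where the groups overlapped and the change was not called (difference 3.63, adjusted p = 0.000578). PDC2 changed by 2.13 in roots and 1.01 in shoots (difference 1.12, adjusted p = 0.0195). Not every core gene differed in the test: the differences of AT4G33560 (-0.10, SE 0.56), AT5G66985 (-0.08, SE 0.71) and AT3G03270 (-0.36, SE 0.36) were not called, with changes of 4.50, 3.45 and 3.82 in roots and 4.60, 3.53 and 4.18 in shoots.

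**Figure D5:**
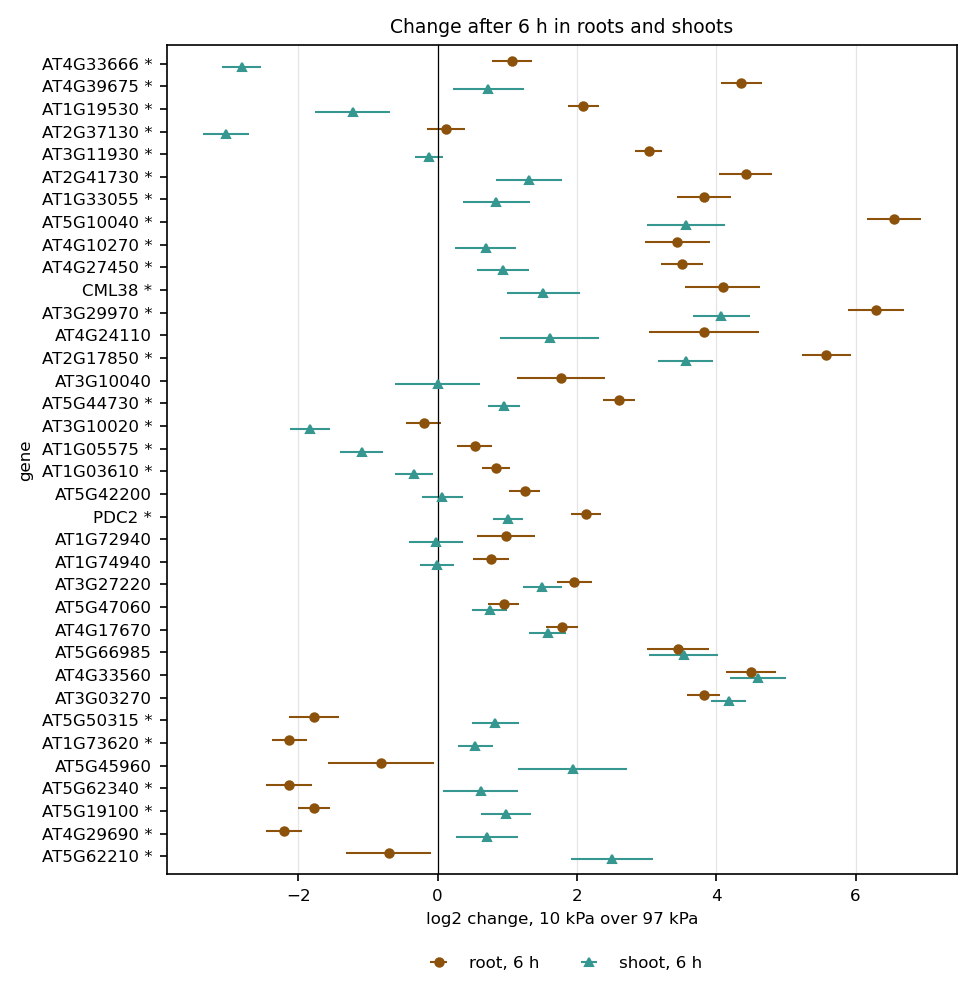
Log2 change, 10 kPa over 97 kPa, with bars of 1 SE, in roots (brown circles) and shoots (green triangles) after 6 h for the low-oxygen core genes and for the genes with the largest called root minus shoot differences, ordered by that difference. Stars mark genes whose root and shoot effects differed at an adjusted p below 0.05. AT4G33666 leads with a difference of 3.88 and AT5G62210 is last with -3.20.

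AT3G11930, whose root signals are given above, had 2724, 1584 and 1853 in 10 kPa shoots and 1911, 2041 and 2620 in 97 kPa shoots, where the groups overlapped. Its effect differed by 3.15 (SE 0.28, adjusted p = 5.03e-12). ARL rose by 1.72 in roots and fell by 1.36 in shoots, and AT4G33666 rose by 1.07 in roots and fell by 2.81 in shoots. Of the 12 largest root decreases 7 differed from shoots, against 6.31% of all probe sets. In shoots 2 of the 12 were called lower as well, against 3.74%, AT4G10280 (-1.73) and AT3G26510 (-2.01). The 12 were chosen on the same root arrays that enter the difference, which can raise the count of 7. ATERDJ3B changed by -1.06 in roots and 0.17 in shoots (difference -1.23, adjusted p = 1.34e-05), CRT1b by -0.90 and -0.10 (difference -0.80, adjusted p = 0.00717), and Cpn60beta2 by -1.4 and 0.22 (difference -1.62, adjusted p = 5.00e-07). GAPC2 changed by 1.35 in roots and 0.25 in shoots (difference 1.1, adjusted p = 0.0132). ATERDJ3B, CRT1b, Cpn60beta2 and GAPC2 were likewise named for their calls on the same root arrays, which can enlarge these differences.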

How the data were processed

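The authors deposited 1 table of signal intensity on a linear scale for 22810 probe sets, which, per the submitters' processing notes, came from the MAS5 algorithm and Affymetrix Expression Console, with versions and settings not stated there. The mean of the deposited intensity values of an array, after trimming 2% at each end, was 500 when averaged over the arrays. No further scaling was applied. The annotation tables given name 1 gene for 13513 probe sets, several for 503 and none for 8794, and 13436 of the first matched the RefSeq table of TAIR10.1. Probe sets of several genes or none are counted but never named.

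To each signal 8.88 was added before taking log2. A probe set was tested if at least 3 root arrays had it at or above their 40th percentile. The 12 root groups (36 arrays, 24 residual degrees of freedom) were fitted by lmFit and eBayes of limma 3.58.1 under R 4.3.3 (variance trend, two-sided, Benjamini-Hochberg adjustment, threshold 0.05), and all 72 arrays (48 residual degrees of freedom) for root minus shoot. Probe sets that passed through shoot arrays alone enter that second fit. Arrays give no read depth, and 3 per group limit the precision. On simulated data, 5 draws with 200 of 16667 probe sets changed, the 6 h comparison called 46.3% of probe sets changed by log2 1 (5.32% of calls false) and 82.8% of those changed by log2 2 (4.72% false). For the 6 h minus 3 h difference 17.1% and 66.3% were recovered, and for 12 h minus 6 h 19.1% and 66.5%. The share changed was not matched to the data, where the 6 h comparison called 9.19% of probe sets. Benjamini-Hochberg results depend on that share, so these rates need not hold for the data.

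Named are the 12 largest increases and decreases among called genes whose groups do not overlap and whose higher group mean is at least 353.3, the median signal of tested probe sets. Added to these are up to 4 called members of a list, members not called as values only, all low-oxygen genes with a probe set, and the 6 largest called differences each way. The members and lists were chosen with earlier results of these data known, so lists are described by counts and medians without a set test. Alternatives were quantile normalization, other pseudocounts (none with a floor of 1.87, and 50.6), no filter or the 60th percentile, no variance trend, each 6 h root array left out, a replicate block, only the 6 arrays, no 48 and 72 h arrays, the mean log2 3′ to 5′ ratio as covariate and, for root minus shoot, the tube as random block and only the 12 arrays at 6 h. No 2 arrays held identical values.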

Additional observations from a re-analysis of the deposited data

Results flagged for a closer look

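The root effect at 6 h differed from the shoot effect for 1129 probe sets, and 14 low-oxygen core genes were among them. The largest differences with the higher effect in roots were those of AT4G33666 (3.88), AT4G39675 (3.63), AT1G19530 (3.31), AT2G37130 (3.16), AT3G11930 (3.15) and AT2G41730 (3.11). AT2G37130 changed by 0.12 in roots and -3.04 in shoots, and AT1G19530 by 2.09 in roots and -1.22 in shoots, where its signals were at most 49.6. The largest differences with the higher effect in shoots were those of AT5G62210 (-3.20), AT4G29690 (-2.92), AT5G19100 (-2.76), AT5G62340 (-2.75), AT1G73620 (-2.67) and the pseudogene AT5G50315 (-2.61). AT5G62210 changed by -0.70 in roots, which was not called, and rose by 2.50 in shoots.

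Between 6 h and 3 h the root effect differed for 23 probe sets. The 6 named genes were AT4G33666 (1.97), AT1G49310 (1.63), AT2G45920 (1.55), NANA (1.55), AT1G18980 (1.53) and AT2G27830 (1.27). Differences between samples of a group were not screened for single extreme values, since every group held 3 arrays.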

How the results depend on the processing

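The 6 h count of 1531 called probe sets was 2321 without the 48 and 72 h arrays, 1202 of them lower (766 before), and lay between 1054 and 1266 with 1 of the 6 arrays left out. The number lower then lay between 484 and 605, with 484 without 97 kPa replicate 1 and 499 without 97 kPa replicate 3. Over the other alternatives the count stayed within 1.5 times, from 1369 to 1686. The 6 h minus 3 h count of 23 was 6 with no variance trend, and it lay between 6 (without 97 kPa replicate 3) and 40 (without 97 kPa replicate 2) with 1 array left out. It was 14 without 10 kPa replicate 1 and 7 without 10 kPa replicate 3. The low-oxygen median of 2.36 was 2.60 with the stricter filter, which tests fewer genes, and 2.36 to 2.46 with 1 array left out. The root minus shoot count lay between 891 and 1299 over its alternatives. None of the counts above and no called gene named here changed sign. Medians of lists near 0 did with 1 array left out, among them shoot photosynthesis (0.17 to -0.09), endoplasmic reticulum folding (0.02 to -0.12), phloem (0.04 to -0.11), the tricarboxylic acid cycle (-0.08 to 0.02) and xyloglucan endotransglucosylases (-0.02 to 0.06). The number of arrays or probe sets differed between some of these fits, and no cause of the shifts was tested. Of 149 called genes named or carrying a symbol, 85 were called under all 16 alternatives. The replicate block gave 1587 calls at 6 h, 23 for 6 h minus 3 h and 1177 for root minus shoot. The numbers did not pair the arrays: deviations from the group means of same-numbered arrays correlated at -0.002, 0.019 and 0.006, and 1 of 3 correlated best with its own number.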
